A study of Mus musculus with 8 samples.

Results

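RNA of TPMCa tumors was compared with RNA of TPM tumors, in 2 bulk libraries of each, which are 4 of the 8 libraries sequenced from mouse models of endometrial cancer. The 4 were chosen by their sample labels, and the question addressed was which transcripts differ once an activated Pik3ca is added to the TPM genotype. Both models started from uterus organoids of female CAG-Cas9-EGFP mice aged 8 to 10 weeks, whose ubiquitous Cas9 was directed by lentiviral sgRNAs that include one against Trp53, and which overexpressed Myc from a retrovirus. TPMCa organoids also received, by retrovirus, a Pik3ca cDNA with an activating hotspot mutation of the helical domain. The organoids were placed into the left uterus of female BALB/cA-nu mice aged 8 weeks, which lack a thymus and so most T lymphocytes. The labels number the 2 libraries of a model without naming the mouse of each, while the legends of the study count the libraries of a model as separate mice. Per the methods of the study, tumor tissue was taken about 2 months later, whereas the labels speak of tumor organoids. TPMR1 tumors, in which an sgRNA against Pik3r1 took the place of the Pik3ca cDNA, and TPK tumors, a model without the Myc virus, had 2 libraries each and served to estimate the spread. In bulk RNA, fewer cells of a type and less RNA per cell cannot be told apart, which holds for every marker list below.

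Pik3ca encodes the catalytic p110 alpha subunit of phosphoinositide 3-kinase, which makes a membrane lipid that recruits Akt, and mutations of its helical domain release it from the hold of the regulatory subunit. The epithelium of the uterus is a sheet of polarized cells joined by cadherin and claudin contacts, with glands that secrete mucins and antimicrobial proteins under the control of Müllerian transcription factors. Around it lie fibroblasts, vessels and leukocytes, of which nude hosts keep macrophages, neutrophils, natural killer cells and B lymphocytes. Imprinted genes are read from a single parental copy and include regulators of fetal growth, some of which are silenced after birth.

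The 4 libraries held between 16259284 and 17139016 counts, and a floor of 3 counts equalled 0.167 to 0.19 CPM (counts scaled by library size and TMM factors), which covers counting error only. One edgeR quasi-likelihood fit of all 8 libraries covered 15875 of 24419 genes, and their median log2 fold change was -0.01. At an adjusted p under 0.05, 553 genes (3.48% of those tested) differed between TPMCa and TPM: 74 rose (0.466%) and 479 fell (3.02%). At a looser threshold, an unadjusted p under 0.05 with a log2 fold change beyond 1, the counts were 1155 (7.28%) and 1852 (11.7%). With 2 libraries per model the calls were sensitive to each library. Leaving out TPM replicate 1 or 2 left 3 or 2 genes higher and 107 or 228 lower, and leaving out TPMCa replicate 1 or 2 left 2 genes higher in each case and 36 or 38 lower. Cdkn1c and Gata4 were the only genes that stayed called higher in all 4 of these fits, and 25 genes stayed called lower, which include Cdh1, Cldn4, Erbb3 and Itgb4 among the genes given below. A fit of the TPM and TPMCa libraries alone called 420 genes higher and 844 lower, and the Wald test of DESeq2 called 975 and 1574. Genes over 4-fold apart between replicates numbered 749 in TPM, 1293 in TPMCa, 2701 in TPMR1 and 972 in TPK.

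The engineered genes were read first, although a gene's count can include reads of the viral cDNA as well as those of the locus. Pik3ca (chromosome 3 of GRCm38 from 32397671 to 32468486) was at 76.6 and 60.9 CPM in the TPM libraries and 89.9 and 83.3 CPM in the TPMCa libraries (log2 fold change 0.33 ± 0.24 (SE), adjusted p = 0.436). Both TPMCa values lay above both TPM values, as they did for 29.1% of all genes tested, and the difference was not called. Myc (chromosome 15 of GRCm38 from 61985391 to 61990374) was at 772 and 1767 CPM in the TPM libraries and 3075 and 324 CPM in the TPMCa libraries, so the TPMCa replicates lay on either side of both TPM replicates (adjusted p = 0.823). Trp53 (chromosome 11 of GRCm38 from 69580359 to 69591873) was at 106 and 131 CPM in the TPM libraries and 78.5 and 70.2 CPM in the TPMCa libraries (adjusted p = 0.249). The test called none of these genes.

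The lists with the lowest medians were those of the epithelium. All 34 genes of epithelial polarity and adhesion had lower values in both TPMCa libraries than in either TPM library, 25 of them fell at an adjusted p under 0.05, against 3.02% of all genes tested, and the median log2 fold change was -6.36. Cdh1, which encodes the adherens junction protein E-cadherin, was at 787 and 698 CPM in the TPM libraries and 6.97 and 5.34 CPM in the TPMCa libraries (log2 fold change -6.91 ± 0.40 (SE), adjusted p = 0.00258). Epcam, a surface adhesion protein of epithelia, was at 313 and 392 CPM in the TPM libraries and 5 and 3.12 CPM in the TPMCa libraries (log2 fold change -6.44 ± 0.53 (SE), adjusted p = 0.00513). In both genes every TPMCa value lay below every TPM value, as was the case for 32.2% of all genes tested. Mal2, which carries proteins to the apical surface, was at 532 and 246 CPM in the TPM libraries and 1.14 and 0.278 CPM in the TPMCa libraries (log2 fold change -9.11 ± 0.86 (SE), adjusted p = 0.0107). Grhl2, a transcription factor that maintains epithelial junctions, was at 93.1 and 77.2 CPM in the TPM libraries and 1.58 and 0.334 CPM in the TPMCa libraries (log2 fold change -6.48 ± 0.78 (SE), adjusted p = 0.0129). Ovol2, a repressor of mesenchymal genes, had 4.58 and 3.37 CPM in TPM and 0 counts in both TPMCa libraries, at least 22.3-fold lower with the floor of 3 counts per library (adjusted p = 0.0302). Summed over the list, the level was 8041 and 5559 CPM in TPM and 211 and 112 CPM in TPMCa. With genes at the floor set to their bound, the median was -6.20. The number called lower was 12 and 19 without TPM replicate 1 or 2, and 7 and 6 without TPMCa replicate 1 or 2.

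Claudins, which seal tight junctions, split by member. Cldn4, Cldn7, Cldn23, Cldn3 and Cldn1 fell among 16 claudins tested, against 3.02% of all genes. The endothelial claudin Cldn5 was at 8.79 and 5.03 CPM in the TPM libraries and 21.3 and 60.5 CPM in the TPMCa libraries and did not pass (adjusted p = 0.192). Krt7 and Krt19, keratins of simple epithelium, also fell. In the wider matrix lists few genes were called, against 3.02% of all genes called lower. Itgb4 and Itgb6 fell among 30 integrins tested, of which 18 had positive log2 fold changes with a median of 0.46. The laminin chain Lamb3 was called lower in a list of 23 laminin and basement membrane genes, of which 2 fell and 14 had positive log2 fold changes (median 0.62), and Col17a1 and Col7a1 fell among 42 collagen genes, of which 30 had positive log2 fold changes (median 1.06). Itgb4, the beta subunit of the hemidesmosome integrin, was at 292 and 191 CPM in the TPM libraries and 6.71 and 4.79 CPM in the TPMCa libraries (log2 fold change -5.39 ± 0.38 (SE), adjusted p = 0.00471).

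Glandular products were low as well. Of 21 tested genes of uterine gland secretion and mucins, 10 fell and 0 rose, against 3.02% and 0.466% of all genes. The median on the log2 scale was -5.79 as fitted and -5.65 once genes at the floor took their bound. Muc1, the cell surface mucin of the uterine lining, was at 183 and 130.0 CPM in the TPM libraries and 2.22 and 1.34 CPM in the TPMCa libraries (log2 fold change -6.46 ± 0.61 (SE), adjusted p = 0.0076). Muc4, another membrane mucin, was at 261 and 287 CPM in the TPM libraries and 0.253 and 0.0557 CPM in the TPMCa libraries (log2 fold change -10.77 ± 1.26 (SE), adjusted p = 0.012). Its TPMCa counts of 4 and 1 were near the floor. Ltf, which encodes lactoferrin, the estrogen-induced protein of the uterine lumen, was at 2278 and 1388 CPM in the TPM libraries and 58.8 and 4.67 CPM in the TPMCa libraries (adjusted p = 0.0892). Sprr2f, an estrogen-responsive gene of the uterine epithelium, had 0 counts in both TPMCa libraries against 256 and 122 CPM in TPM, which makes it at least 1058-fold lower (adjusted p = 0.00767). Gabrp, a subunit of the GABA-A receptor found in uterus, had 0 counts in both as well and was at least 967-fold lower (adjusted p = 0.0393). None of the 10 calls in this list held when either TPMCa library was left out, and 3 and 6 held without TPM replicate 1 or 2.

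Among 14 transcription factors of the Müllerian duct and gland, 2 fell and 0 rose, against 3.02% and 0.466% of all genes. Pax2, which is needed to form the Müllerian duct, was one of them, with 0 counts in both TPMCa libraries, and was at least 31.8-fold lower (adjusted p = 0.0485). Pax8, the factor most used to recognize Müllerian epithelium, was at 26.4 and 12.3 CPM in the TPM libraries and 0.317 and 0.111 CPM in the TPMCa libraries and missed the threshold (adjusted p = 0.0503). Receptors of sex steroids were not called. Esr1, the estrogen receptor, was at 30.1 and 51 CPM in the TPM libraries and 18.2 and 56.2 CPM in the TPMCa libraries (adjusted p = 0.919), and Pgr, the progesterone receptor, was at 1.81 and 12.8 CPM in the TPM libraries and 1.52 and 51.6 CPM in the TPMCa libraries (adjusted p = 0.618). In the list of sex steroid receptors and response genes, only Zbtb16 passed, a zinc finger gene induced by progestins and glucocorticoids, which was at 0.241 and 0.515 CPM in the TPM libraries and 34.6 and 28.7 CPM in the TPMCa libraries (log2 fold change 6.36 ± 1.06 (SE), adjusted p = 0.0307).

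The promoter of Epcam is shown because its window holds the CACCTG motif, the E-box read by Snail and Zeb repressors. Zeb2 rose in the same comparison, a call that was lost without any 1 of the 4 libraries. Snai2, of the Snail repressors, had both TPMCa values below both TPM values. The part of these genes in the epithelial values was not tested. The RefSeq table of GRCm38.p6 promoters held 16 of the 34 epithelial genes, and 11 of these had CACCTG, on either strand, in the 250 bases before the start, against 19.4% of the 27025 genes with a promoter. Of the 25 genes that fell, 13 were in the table and 10 held the motif. A match is a description of the letters and no evidence of binding. The 160 bases before the start of Epcam follow, 5′ to 3′ with the motif in capitals.
Epcam, chr17:87635819-87635978, plus strand: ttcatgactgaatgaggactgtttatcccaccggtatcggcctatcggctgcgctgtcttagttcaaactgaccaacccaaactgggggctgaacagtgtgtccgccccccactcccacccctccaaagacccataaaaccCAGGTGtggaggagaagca

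**Figure D1:**
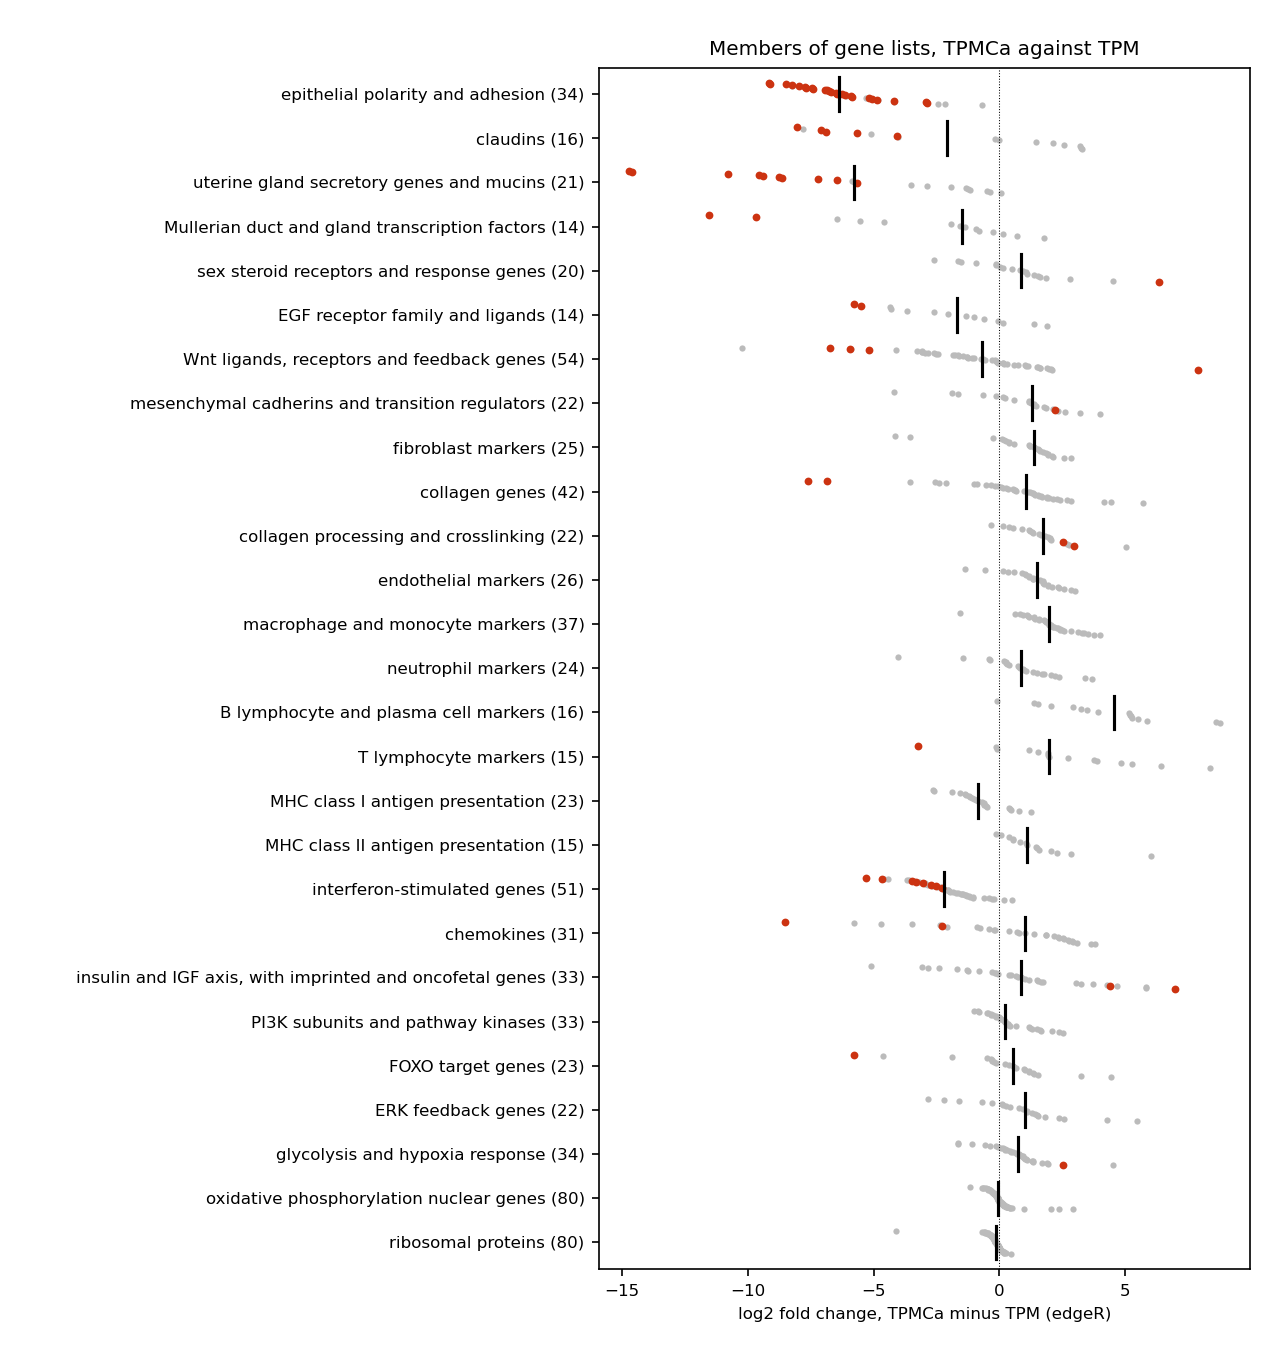
Log2 fold change of TPMCa minus TPM (x axis, edgeR) for each tested member of 27 gene lists (y axis, number tested in parentheses), with members at an adjusted p under 0.05 in red, others in grey and the median as a black line. The epithelial, mucin and interferon lists lie to the left with many red points, while macrophage, endothelial and collagen processing genes lie to the right with few or none. Points of genes with 3 counts or fewer in both libraries of a model are fitted values that depend on the prior count.

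On the other side of the comparison, the change with the smallest adjusted p among the genes that rose was in an imprinted gene. Cdkn1c (chromosome 7 of GRCm38 from 143458339 to 143461050), the cyclin-dependent kinase inhibitor p57, was at 9.03 and 18.1 CPM in the TPM libraries and 1175 and 2247 CPM in the TPMCa libraries (log2 fold change 6.98 ± 0.64 (SE), adjusted p = 0.00702). Both TPMCa values lay above both TPM values by over an order of magnitude, and the TPMR1 libraries were at 106 and 94.2 CPM. The call held in every fit that left out 1 library. Plagl1 (chromosome 10 of GRCm38 from 13060504 to 13131694), a zinc finger transcription factor, was at 27.2 and 18.5 CPM in the TPM libraries and 505 and 452 CPM in the TPMCa libraries (log2 fold change 4.39 ± 0.60 (SE), adjusted p = 0.0181). Its TPMCa replicates differed little, and TPMR1 was at 54.1 and 18 CPM. Mest (chromosome 6 of GRCm38 from 30723547 to 30748465), a hydrolase of mesodermal tissue, was at 12.3 and 11 CPM in the TPM libraries and 177 and 572 CPM in the TPMCa libraries (log2 fold change 5.01 ± 0.98 (SE), adjusted p = 0.0467). The calls of Plagl1 and Mest were lost without any 1 of the 4 libraries, and that of Mest also when library size alone set the scale.

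A list of 45 imprinted genes was then drawn up after these values had been seen, so its counts describe the data and support nothing. Of 41 tested, 3 rose, against 0.466% of all genes, 0 fell and 33 had a positive log2 fold change, with a median of 1.88. At the looser threshold 16 were higher and 1 was lower, against 7.28% and 11.7% of all genes. Grb10, an adaptor that dampens insulin receptor signaling, was at 94.8 and 107 CPM in the TPM libraries and 1103 and 884 CPM in the TPMCa libraries (adjusted p = 0.0725). Peg10, a gene derived from a retrotransposon, was at 4.39 and 13.2 CPM in the TPM libraries and 122 and 81.1 CPM in the TPMCa libraries (adjusted p = 0.136). In each of these the groups did not overlap, although the test called none. Igf2 and H19 were high in TPMCa replicate 1 alone. Igf2 (chromosome 7 of GRCm38 from 142650766 to 142666816), the fetal growth factor, was at 3.55 and 15.6 CPM in the TPM libraries and 1089.7 and 6.12 CPM in the TPMCa libraries, and the value of replicate 2 lay within the TPM range. H19 (chromosome 7 of GRCm38 from 142575529 to 142578143), the noncoding RNA beside Igf2, was at 23.6 and 136 CPM in the TPM libraries and 1999 and 131 CPM in the TPMCa libraries, with the same replicate high. Dlk1, a membrane protein of fetal tissues, was at 6.56 and 14 CPM in the TPM libraries and 319.6 and 76.7 CPM in the TPMCa libraries, so both TPMCa values lay above both TPM values, that of replicate 1 more so. Meg3, a noncoding RNA of the Dlk1 locus, was at 30.6 and 45.8 CPM in the TPM libraries and 30.3 and 37.2 CPM in the TPMCa libraries, so it did not share the direction of its neighbor. Phlda2, which lies in the same imprinted region as Cdkn1c, was at 9.57 and 8.41 CPM in the TPM libraries and 4.62 and 0.557 CPM in the TPMCa libraries (adjusted p = 0.314). Slc22a18 of that region was at 9.33 and 10.6 CPM in the TPM libraries and 0.633 and 1.5 CPM in the TPMCa libraries (adjusted p = 0.11), so both had values in the other direction.

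**Figure D2:**
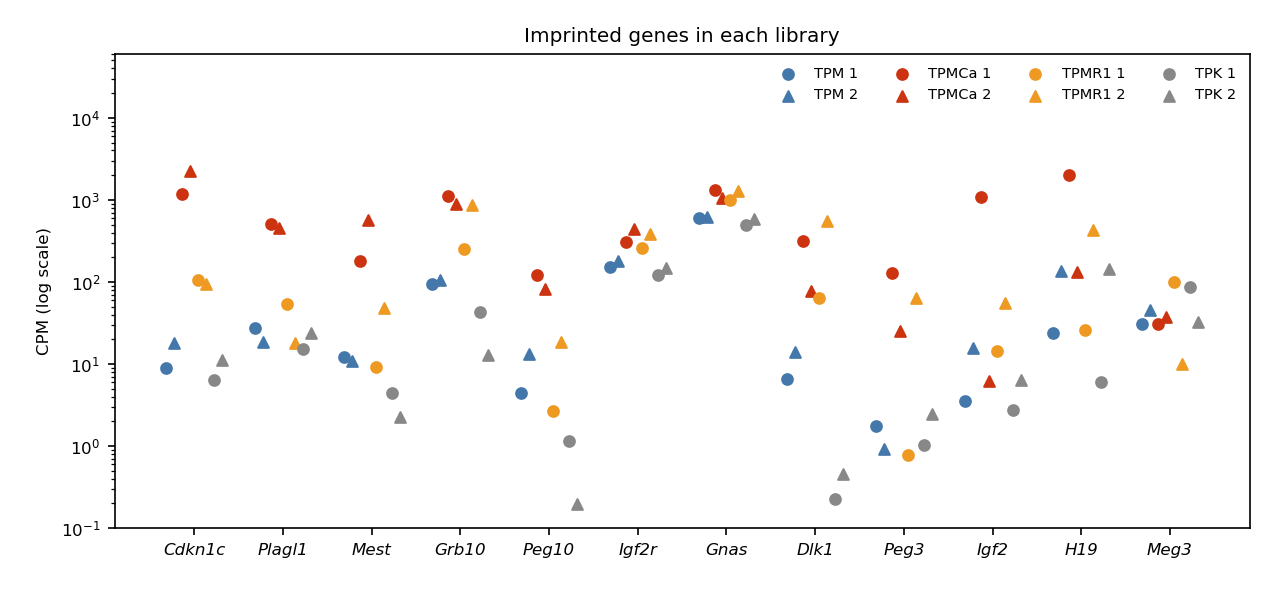
CPM (y axis, log scale) of 12 imprinted genes (x axis) in each library, with colors for the models and circles and triangles for replicates 1 and 2. Cdkn1c, Plagl1 and Mest are high in both TPMCa libraries, whereas Igf2 and H19 are high in TPMCa replicate 1 and not in replicate 2.

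Hox genes, which record position along the body axis and keep the identity of the uterus, differed in sign between some of the clusters. All 8 HoxB genes tested had lower values in TPMCa, with a median log2 fold change of -3.59. Hoxb6, Hoxb5 and Hoxb8 fell, against 3.02% of all genes. Hoxb6 was at 47.3 and 41.1 CPM in the TPM libraries and 1.2 and 2.62 CPM in the TPMCa libraries (log2 fold change -4.52 ± 0.59 (SE), adjusted p = 0.0163). Hoxb5 was at 14.7 and 7.55 CPM in the TPM libraries and 0.443 and 0.557 CPM in the TPMCa libraries (log2 fold change -4.45 ± 0.60 (SE), adjusted p = 0.018). All 6 HoxC and all 11 HoxA genes tested had positive log2 fold changes, with medians of 4.49 and 3.15, but only Hoxc10 rose. The 6 HoxD genes tested were mixed, with 4 positive and 2 negative log2 fold changes, a median of 1.39 and none called. Hoxc10 was at 0.181 and 0.4 CPM in the TPM libraries and 9.25 and 16.3 CPM in the TPMCa libraries (log2 fold change 5.42 ± 0.82 (SE), adjusted p = 0.0237). Within HoxA, Hoxa10, a regulator of the receptive endometrium, was at 7.47 and 14.9 CPM in the TPM libraries and 105 and 28.8 CPM in the TPMCa libraries (adjusted p = 0.366), and Hoxa11 was at 4.88 and 5.95 CPM in the TPM libraries and 45.6 and 2.23 CPM in the TPMCa libraries, so its groups overlapped. Of the TPMCa libraries, replicate 1 was the higher for Hoxa10 and Hoxa11 and replicate 2 for all 6 HoxC genes. The split by cluster was noticed after the values had been seen. The median over all 31 Hox genes was 2.14, and 0.87 without TPMCa replicate 1 and 2.51 without TPMCa replicate 2. No Hox call held without TPM replicate 1 or without either TPMCa replicate, while those of Hoxb5 and Hoxb6 held without TPM replicate 2.

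**Figure D3:**
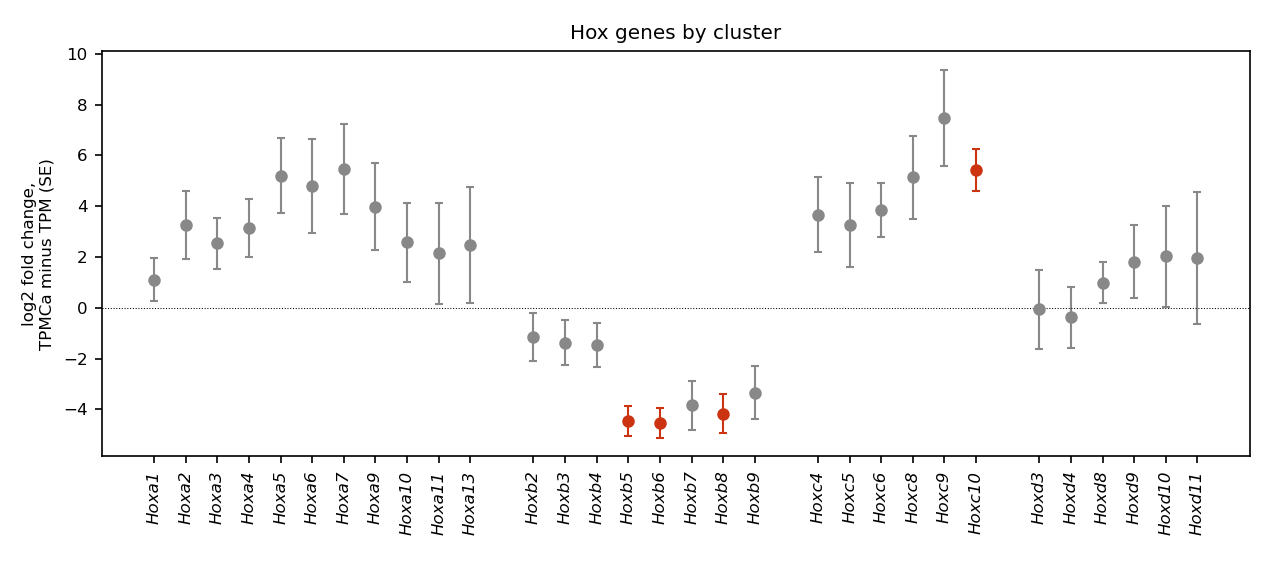
Log2 fold change of TPMCa minus TPM (y axis) with its SE for each tested Hox gene (x axis), ordered within the clusters A, B, C and D, with genes at an adjusted p under 0.05 in red. HoxB genes lie below 0, and HoxA and HoxC genes lie above 0, most with wider errors.

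Some regulators of other lineages were at or near 0 in TPM. Gata4 (chromosome 14 of GRCm38 from 63198922 to 63271692), a transcription factor of heart, gonad and gut, had 0 counts in both TPM libraries and 5.32 and 11.3 CPM in TPMCa, at least 47.2-fold higher (adjusted p = 0.00889). It was higher still in TPMR1, at 137 and 183 CPM, and the call held in every fit that left out 1 of the TPM or TPMCa libraries. Gata3, which is expressed in several epithelia, was at 17.2 and 17.6 CPM in the TPM libraries and 0.76 and 2.34 CPM in the TPMCa libraries (adjusted p = 0.0857). Rspo2, a secreted enhancer of Wnt signaling, was at 0 and 0.114 CPM in the TPM libraries and 17.8 and 13.7 CPM in the TPMCa libraries (adjusted p = 0.025). Its TPM libraries held 0 and 2 counts. Agtr2, the angiotensin receptor of fetal mesenchyme, was at 0.361 and 0.343 CPM in the TPM libraries and 10.3 and 26.6 CPM in the TPMCa libraries (log2 fold change 5.68, adjusted p = 0.0354). Mef2c, a transcription factor of muscle and endothelium, was at 19.6 and 12.2 CPM in the TPM libraries and 53.5 and 118 CPM in the TPMCa libraries (log2 fold change 2.44 ± 0.46 (SE), adjusted p = 0.0427).

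Mesenchymal and stromal genes were read next. Bulk RNA does not say which cells, tumor cells included, made these transcripts. In the list of 22 mesenchymal cadherins and transition regulators, Zeb2 rose and 0 genes fell, against 0.466% and 3.02% of all genes. The median log2 fold change was 1.31. Zeb2, a repressor of epithelial genes, was at 31.9 and 22.1 CPM in the TPM libraries and 117 and 134 CPM in the TPMCa libraries (log2 fold change 2.21 ± 0.35 (SE), adjusted p = 0.0261). Zeb1, its paralog, was at 20.1 and 14.6 CPM in the TPM libraries and 46.8 and 44.2 CPM in the TPMCa libraries (adjusted p = 0.0548). Vim, the intermediate filament of mesenchymal cells, was at 344 and 176 CPM in the TPM libraries and 2592 and 2287 CPM in the TPMCa libraries (adjusted p = 0.11), and Cdh2, which encodes N-cadherin, was at 1.69 and 4.23 CPM in the TPM libraries and 38.9 and 56.7 CPM in the TPMCa libraries (adjusted p = 0.0934). Each of these had both TPMCa values above both TPM values. Snai2, another repressor of epithelial genes, was at 20.7 and 14.1 CPM in the TPM libraries and 5.19 and 4.23 CPM in the TPMCa libraries (adjusted p = 0.0653), with both TPMCa values below both TPM values.

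Fibroblast markers were mostly higher by sign, but the fit of all 8 libraries called none. DESeq2 called 2 higher and 2 lower, against 975 and 1574 of 15875 genes tested. Of 25 tested, 22 had positive log2 fold changes, 12 had both TPMCa values above both TPM values, against 29.1% of all genes, and 2 were higher and 1 was lower at the looser threshold, against 7.28% and 11.7% of all genes. Col1a1, the main fibrillar collagen chain, was at 2359 and 975 CPM in the TPM libraries and 3261 and 6738 CPM in the TPMCa libraries, and Pdgfra, the PDGF receptor of fibroblasts, was at 87.1 and 40.7 CPM in the TPM libraries and 113 and 226 CPM in the TPMCa libraries. TPM replicate 1 lay close below TPMCa replicate 1 in both genes. The summed level of the list was 9413 and 3785 CPM in TPM and 10998 and 19672 CPM in TPMCa, and its median log2 fold change of 1.39 became 1.83 without TPMCa replicate 1 and 0.25 without TPMCa replicate 2. Smooth muscle genes, with 0 of 19 called and a median of -0.75, and pericyte markers, with 0 of 12 called and a median of 1.33, likewise had no called member in the fit of all 8 libraries.

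Enzymes that mature collagen had almost uniformly positive values. Of 22 genes of collagen processing and crosslinking, 21 had positive log2 fold changes, 12 were higher at the looser threshold against 7.28% of all genes, and the median was 1.74. Plod1, a lysyl hydroxylase, was at 48.3 and 30.1 CPM in the TPM libraries and 403 and 214 CPM in the TPMCa libraries (log2 fold change 2.98 ± 0.58 (SE), adjusted p = 0.0457). P4ha1, a catalytic subunit of prolyl 4-hydroxylase, was at 66.6 and 49.4 CPM in the TPM libraries and 449 and 214 CPM in the TPMCa libraries (log2 fold change 2.52 ± 0.43 (SE), adjusted p = 0.0336). In both, every TPMCa value lay above every TPM value. Lox, which crosslinks collagen, was at 149.7 and 175 CPM in the TPM libraries and 743 and 295 CPM in the TPMCa libraries (adjusted p = 0.119), and Loxl2, a related enzyme, was at 40.2 and 49.3 CPM in the TPM libraries and 227 and 114 CPM in the TPMCa libraries (adjusted p = 0.162). P4ha1 also stood in the list of glycolysis and the hypoxia response, of whose 34 genes it alone rose, with a list median of 0.74 that was -0.16 without TPMCa replicate 1 and 1.07 without TPMCa replicate 2. The calls of Plod1 and P4ha1 were lost without any 1 of the 4 libraries. Of 42 collagen genes, 0 rose. Elsewhere in the matrix, Ogn, the small proteoglycan osteoglycin, was at 20.6 and 6.18 CPM in the TPM libraries and 134 and 100.1 CPM in the TPMCa libraries (log2 fold change 3.13 ± 0.59 (SE), adjusted p = 0.0427). Has3, a hyaluronan synthase of epithelia, fell by 4.26 on the log2 scale.

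Endothelial markers were mostly higher by sign, but the fit of all 8 libraries called none. Of 26 tested, 24 had positive log2 fold changes, 9 were higher at the looser threshold, against 7.28% of all genes, and 0 passed the adjusted threshold. In 20, both TPMCa values lay above both TPM values, and in 1 below, against 29.1% and 32.2% of all genes. DESeq2 called 5 higher and 0 lower, against 975 and 1574 of 15875 genes tested. The fit of the TPM and TPMCa libraries alone called 8 higher and 0 lower, against 420 and 844 of 15134. The median was 1.48, and it was 1.59 without TPMCa replicate 1 and 1.22 without TPMCa replicate 2. Cdh5, which encodes the junction protein VE-cadherin, was at 38.6 and 29.6 CPM in the TPM libraries and 166 and 186 CPM in the TPMCa libraries (adjusted p = 0.158). Pecam1, the adhesion protein CD31, was at 43 and 33.1 CPM in the TPM libraries and 129 and 161 CPM in the TPMCa libraries (adjusted p = 0.193). Tie1, a receptor kinase of endothelium, was at 17.2 and 17.6 CPM in the TPM libraries and 53.1 and 78.2 CPM in the TPMCa libraries (adjusted p = 0.164). In these genes both TPMCa values lay above both TPM values. Vwf, a clotting factor stored in mature endothelium, was at 14 and 19.4 CPM in the TPM libraries and 15.1 and 7.29 CPM in the TPMCa libraries, and Sox7 was at 59.6 and 60.3 CPM in the TPM libraries and 37.1 and 9.13 CPM in the TPMCa libraries, and these 2 were the members with a negative log2 fold change. Plxnd1, a semaphorin receptor of vessels, rose, at 64.2 and 55 CPM in the TPM libraries and 158 and 269 CPM in the TPMCa libraries (log2 fold change 1.84 ± 0.32 (SE), adjusted p = 0.035).

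**Figure D4:**
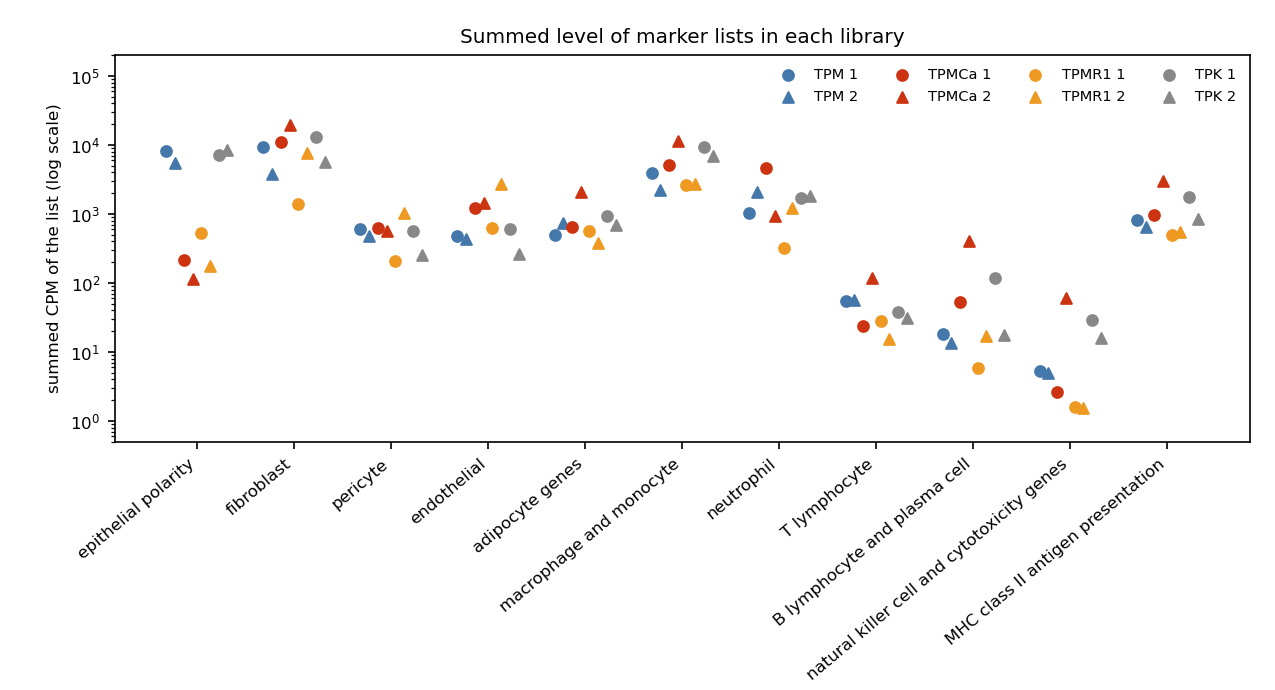
Summed CPM (y axis, log scale) of 11 marker lists (x axis) in each library, with colors for the models and circles and triangles for replicates 1 and 2. The epithelial sum is lower in both TPMCa libraries than in both TPM libraries, and the endothelial sum is higher in both. Lymphocyte and MHC class II sums are highest in TPMCa replicate 2, and TPK replicate 1 comes next for B lymphocyte and MHC class II genes.

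Among leukocytes, the macrophage list was nearly uniform in sign. Of 37 markers, 36 had positive log2 fold changes and 21 were higher at the looser threshold, against 7.28% of all genes, but 0 passed the adjusted threshold from edgeR. DESeq2 called 20 of them higher, against 975 of 15875 genes tested. The median was 1.98, and 2.54 without TPMCa replicate 1 and 1.16 without TPMCa replicate 2. Adgre1, the macrophage antigen F4/80, was at 31.1 and 9.67 CPM in the TPM libraries and 35.1 and 122 CPM in the TPMCa libraries (adjusted p = 0.224). Csf1r, the receptor of the macrophage growth factor, was at 74.5 and 37.5 CPM in the TPM libraries and 93.9 and 348 CPM in the TPMCa libraries (adjusted p = 0.167). Cd68, a lysosomal protein of phagocytes, was at 48.9 and 49.4 CPM in the TPM libraries and 108 and 338 CPM in the TPMCa libraries (adjusted p = 0.158). TPMCa replicate 2 was the highest of the 4 libraries for each of them, and TPMCa replicate 1 stood close to TPM replicate 1 for Adgre1 and Csf1r. Arg1, an arginase of alternatively activated macrophages, was the member with a negative log2 fold change, at 1137 and 205 CPM in the TPM libraries and 286 and 170.1 CPM in the TPMCa libraries. The summed level was 3949 and 2240.0 CPM in TPM and 5092 and 11353 CPM in TPMCa. Tlr7, a sensor of single-stranded RNA in macrophages and B lymphocytes, rose, at 3.37 and 2.75 CPM in the TPM libraries and 16.5 and 40.5 CPM in the TPMCa libraries (log2 fold change 3.22 ± 0.64 (SE), adjusted p = 0.0499). The Tlr7 call was lost without any 1 of the 4 libraries and under 2 other scalings.

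Levels in other immune lists differed between the TPMCa replicates. B lymphocyte and plasma cell markers had the highest median of the 68 lists, 4.55 over 16 genes, or 4.02 once genes at the floor took their bound. It was 5.72 without TPMCa replicate 1 and 1.98 without TPMCa replicate 2. The edgeR test called 0 of them and DESeq2 called 11 higher, against 975 of 15875 genes tested. At the looser threshold 11 were higher, against 7.28% of all genes. In 12 both TPMCa values lay above both TPM values, against 29.1% of all genes. Ms4a1, the antigen CD20, was at 0 and 0.0572 CPM in the TPM libraries and 0.443 and 27.9 CPM in the TPMCa libraries. The B lymphocyte list summed to 18.3 and 13.3 CPM in TPM and 52.1 and 406 CPM in TPMCa, so the level came mostly from TPMCa replicate 2. T lymphocyte markers were low in every library of the athymic hosts, with a sum of 54.7 and 57.1 CPM in TPM and 23.7 and 118 CPM in TPMCa. Bcl11b, a T lineage factor also expressed in epithelia, was the only T marker called, and it fell, from 32.1 and 37.5 CPM to 2.03 and 5.4 CPM. It made up most of the T lymphocyte sum in both TPM libraries and little of it in the TPMCa libraries. Natural killer and cytotoxicity genes summed to 5.36 and 4.98 CPM in TPM and 2.6 and 60.3 CPM in TPMCa. MHC class II genes summed to 811 and 644 CPM in TPM and 968 and 2973 CPM in TPMCa, and their median of 1.10 was 2.27 without TPMCa replicate 1 and -0.33 without TPMCa replicate 2. Neutrophil genes went the other way between replicates, with 1036 and 2047 CPM in TPM and 4702 and 929 CPM in TPMCa. S100a8, a calcium-binding protein of neutrophils, was at 163 and 301 CPM in the TPM libraries and 825 and 76 CPM in the TPMCa libraries. Adipocyte genes summed to 495 and 742 CPM in TPM and 642 and 2099 CPM in TPMCa, again with TPMCa replicate 2 apart. Their median was 3.18 over 15 genes, 3.65 without TPMCa replicate 1 and 1.22 without TPMCa replicate 2. In 10 both TPMCa values lay above both TPM values, and in 2 below, against 29.1% and 32.2% of all genes. In these lists the test called no gene other than Bcl11b.

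Interferon-stimulated genes were lower in TPMCa than in TPM. Of 51 tested, 49 had negative log2 fold changes, 8 fell at an adjusted p under 0.05 against 3.02% of all genes, 33 were lower at the looser threshold against 11.7%, and 0 rose. The median was -2.21, and -1.60 without TPMCa replicate 1 and -3.25 without TPMCa replicate 2. Ifit1, which binds viral RNA that lacks a methylated cap, was at 247 and 105 CPM in the TPM libraries and 6.21 and 7.62 CPM in the TPMCa libraries (log2 fold change -4.67 ± 0.56 (SE), adjusted p = 0.0128). Isg15, a ubiquitin-like modifier, was at 182 and 105 CPM in the TPM libraries and 11.1 and 17.9 CPM in the TPMCa libraries (log2 fold change -3.31 ± 0.46 (SE), adjusted p = 0.0191). Oas3, an enzyme that senses double-stranded RNA and activates RNase L, was at 87.6 and 85.1 CPM in the TPM libraries and 4.43 and 11.2 CPM in the TPMCa libraries (log2 fold change -3.46 ± 0.54 (SE), adjusted p = 0.025). In each gene the lowest TPM value was several times the highest TPMCa value. Ifit3b, Rtp4, Oasl1, Phf11d and Gbp2 also fell, although scaling by library size alone ended the calls of Rtp4, Phf11d and Gbp2. Irf7, a transcription factor of the response, was at 337 and 164 CPM in the TPM libraries and 20.3 and 44 CPM in the TPMCa libraries (adjusted p = 0.116). Without TPM replicate 1 or 2 the test called 1 or 3 of these genes, and without TPMCa replicate 1 or 2 it called 0 or 2. The TPMR1 libraries were low as well, at 9.02 and 5.28 CPM for Ifit1, and the TPK libraries were not, at 277 and 428 CPM. Epithelial cells also express such genes, and the epithelial sum given above was lower in the same libraries; its part in this result was not tested.

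The promoters of 4 genes that fell are shown because they share the interferon response element, searched as GAAA, any 2 bases and GAAA again, on both strands in the 250 bases before the start. Of the 51 genes, 36 had a RefSeq promoter and 19 of these held the motif, against 3.46% of all 27025 genes, and of the 8 that fell, 7 had a promoter and 5 held it (Ifit1, Ifit3b, Isg15, Oas3 and Gbp2). The 160 bases before each start follow on GRCm38.p6, 5′ to 3′ on the strand of the gene, with matches in capitals. In Isg15 the matches overlap, and Ifit3b has a second match further upstream.
Ifit1, chr19:34640729-34640888, plus strand: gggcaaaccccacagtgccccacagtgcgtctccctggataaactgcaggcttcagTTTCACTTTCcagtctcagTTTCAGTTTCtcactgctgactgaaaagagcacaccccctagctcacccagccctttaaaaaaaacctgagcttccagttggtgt
Ifit3b, chr19:34607797-34607956, plus strand: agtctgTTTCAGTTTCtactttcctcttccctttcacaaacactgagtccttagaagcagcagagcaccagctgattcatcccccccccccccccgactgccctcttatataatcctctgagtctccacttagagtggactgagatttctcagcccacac
Isg15, chr4:156200819-156200978, minus strand: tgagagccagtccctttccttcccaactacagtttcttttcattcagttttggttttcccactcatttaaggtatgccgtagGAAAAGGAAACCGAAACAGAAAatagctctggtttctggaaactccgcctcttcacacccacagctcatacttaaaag
Oas3, chr5:120777660-120777819, minus strand: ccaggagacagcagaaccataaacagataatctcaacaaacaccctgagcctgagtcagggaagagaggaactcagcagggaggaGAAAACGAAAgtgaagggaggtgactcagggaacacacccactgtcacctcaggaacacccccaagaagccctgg

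**Figure D5:**
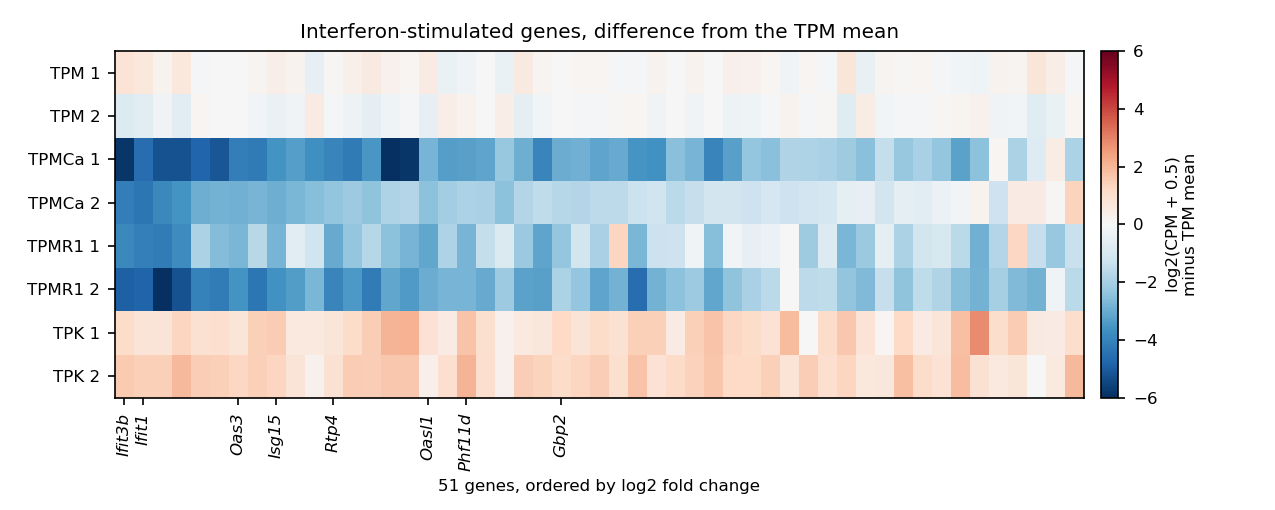
Log2(CPM + 0.5) of 51 interferon-stimulated genes (columns, ordered by log2 fold change, named where the adjusted p was under 0.05) in each of the 8 libraries (rows), as the difference from the mean of the 2 TPM libraries, with blue for lower and red for higher. Both TPMCa rows are blue for nearly all genes, replicate 1 more than replicate 2, while the TPK rows are mostly red.

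Antigen presentation by MHC class I, which interferon induces, leaned the same way. Of 23 genes tested, 18 had negative log2 fold changes, 7 were lower at the looser threshold, against 11.7% of all genes, and 0 passed the adjusted threshold. H2-K1, a classical heavy chain, was at 1875 and 1741 CPM in the TPM libraries and 205 and 372 CPM in the TPMCa libraries (adjusted p = 0.0871). B2m, the shared light chain, was at 1112 and 1182 CPM in the TPM libraries and 299 and 586 CPM in the TPMCa libraries (adjusted p = 0.161). H2-D1, another heavy chain, was at 279 and 249 CPM in the TPM libraries and 89.6 and 177 CPM in the TPMCa libraries (adjusted p = 0.224). The TPMCa values were the lower ones in each case.

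Of 31 chemokines, 2 fell and 0 rose, with a median of 1.03. Of all genes tested 3.02% fell and 0.466% rose, the shares to set beside each list of this paragraph. Cxcl17, a mucosal chemokine of epithelia, fell, at 58.6 and 55.3 CPM in the TPM libraries and 0.253 and 0.0557 CPM in the TPMCa libraries (log2 fold change -8.50 ± 1.12 (SE), adjusted p = 0.0229). Cx3cl1, the membrane-bound fractalkine, fell as well, at 43 and 49.2 CPM in the TPM libraries and 9.88 and 9.29 CPM in the TPMCa libraries (log2 fold change -2.27 ± 0.31 (SE), adjusted p = 0.018). Ccl2, which attracts monocytes, was at 9.03 and 3.83 CPM in the TPM libraries and 65.3 and 112 CPM in the TPMCa libraries (adjusted p = 0.0995), and Cxcl12, which stromal cells make, was at 29.1 and 14.7 CPM in the TPM libraries and 113 and 106 CPM in the TPMCa libraries (adjusted p = 0.399). Both were higher in each TPMCa library, yet neither passed. Of 51 interleukin genes and receptors, Il11ra1, the receptor of interleukin 11 that takes part in decidualization, rose, at 25.4 and 21.2 CPM in the TPM libraries and 117 and 176 CPM in the TPMCa libraries (log2 fold change 2.65 ± 0.45 (SE), adjusted p = 0.0323). The keratinocyte cytokines Il1f6 and Il1f8 and the epithelial receptor subunit Il17re fell, and so did Cfi, the complement factor that cleaves C3b. Tnfrsf11b, which encodes the decoy receptor osteoprotegerin, fell among 39 TNF ligands and receptors.

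Of 33 PI3K subunits and pathway kinases, 0 passed, which does not show that their transcripts were unchanged. The median log2 fold change was 0.24. At the looser threshold 3 were higher and 0 lower, against 7.28% and 11.7% of all genes. Pik3r1, the regulatory subunit, was at 99.6 and 188 CPM in the TPM libraries and 78.1 and 80.9 CPM in the TPMCa libraries (adjusted p = 0.282), and Pik3cd, the catalytic subunit of leukocytes, was at 15.5 and 12.4 CPM in the TPM libraries and 31.9 and 88.5 CPM in the TPMCa libraries (adjusted p = 0.141). Of 23 FOXO target genes, which are transcribed when Akt is inactive, 14 had positive log2 fold changes, with a median of 0.53. At the looser threshold 5 were higher and 3 lower, against 7.28% and 11.7% of all genes. Erbb3 alone passed the adjusted threshold, and it fell, against 3.02% of all genes called lower. Irs2, the insulin receptor substrate, was at 9.81 and 6.98 CPM in the TPM libraries and 82.6 and 77.3 CPM in the TPMCa libraries (adjusted p = 0.151), so its values were in the other direction. The EGF receptor family and its ligands had a median of -1.68 over 14 genes. Erbb3, the receptor partner that couples to PI3K, was at 109.6 and 90.6 CPM in the TPM libraries and 1.27 and 2.34 CPM in the TPMCa libraries (log2 fold change -5.79 ± 0.47 (SE), adjusted p = 0.0051), and this call held in every fit that left out 1 library. Tgfa, a ligand of the EGF receptor, was at 60.6 and 43.1 CPM in the TPM libraries and 1.39 and 0.89 CPM in the TPMCa libraries (log2 fold change -5.50 ± 0.53 (SE), adjusted p = 0.0076). Erbb2 was at 194 and 219 CPM in the TPM libraries and 14.1 and 6.34 CPM in the TPMCa libraries (adjusted p = 0.0666) and Egfr at 124 and 83 CPM in the TPM libraries and 69.5 and 33.5 CPM in the TPMCa libraries (adjusted p = 0.246). Of the ERK feedback genes, 0 of 22 passed, although 17 had positive log2 fold changes, with a median of 1.01. At the looser threshold 5 were higher and 2 lower, against 7.28% and 11.7% of all genes. Fos, an immediate early gene, was at 58.1 and 28.9 CPM in the TPM libraries and 2727 and 1189.8 CPM in the TPMCa libraries, and Egr1, another, was at 105 and 65.6 CPM in the TPM libraries and 2221 and 1106 CPM in the TPMCa libraries (adjusted p = 0.0895 and 0.18), with both TPMCa values above both TPM values for each.

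Of 54 Wnt genes, 36 had negative log2 fold changes, with a median of -0.68. In this list 3 fell and 1 rose, against 3.02% and 0.466% of all genes. The gland-forming ligand Wnt7b was at 129 and 53.4 CPM in the TPM libraries and 1.2 and 1.78 CPM in the TPMCa libraries (log2 fold change -5.92 ± 0.96 (SE), adjusted p = 0.0283). Fzd10, a receptor, was at 39.9 and 11.6 CPM in the TPM libraries and 0.19 and 0.278 CPM in the TPMCa libraries (log2 fold change -6.73 ± 0.91 (SE), adjusted p = 0.025), and Wnt16 fell as well, while Rspo2 rose as described. Wnt7a, the ligand of the uterine luminal epithelium, had 4.15 and 12.6 CPM in TPM and 0 counts in both TPMCa libraries, at least 47-fold lower, but did not pass (adjusted p = 0.0867). At the looser threshold 15 of the 54 were lower, against 11.7% of all genes. Axin2, a feedback target of the pathway, was at 27.9 and 17.3 CPM in the TPM libraries and 1.84 and 5.95 CPM in the TPMCa libraries (adjusted p = 0.15). The remaining signaling families held few called genes, against 3.02% of all genes called lower. Bmp7 fell among 68 genes of the TGF-beta, activin and BMP pathway, of which 49 had positive log2 fold changes (median 0.65), Fgfbp1 among 19 of the FGF family, Dlk2 among 27 of the Notch family, and Epha1, Ephb6 and Sema4a among 65 ephrins, semaphorins and plexins. No hedgehog gene passed among 15.

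Few metabolic genes passed. Hmox1, the heme-degrading enzyme, rose, at 87.3 and 47.7 CPM in the TPM libraries and 664 and 469 CPM in the TPMCa libraries (log2 fold change 3.07 ± 0.42 (SE), adjusted p = 0.0182), while Gpx2, an epithelial glutathione peroxidase, fell, and the other 31 NRF2 and glutathione genes tested did not pass. Insig1, which restrains sterol synthesis, rose, at 50.5 and 41.6 CPM in the TPM libraries and 308 and 131 CPM in the TPMCa libraries (log2 fold change 2.25 ± 0.45 (SE), adjusted p = 0.04996), in a list of 25 cholesterol genes of which 20 had negative log2 fold changes. Aqp3 and Aqp4, water channels, and Car13, a carbonic anhydrase, fell. Of 37 p53 target genes, Sfn, the epithelial 14-3-3 sigma, and Dcxr fell and 0 rose, against 3.02% and 0.466% of all genes. In the most abundant housekeeping lists, 0 of 80 nuclear genes of oxidative phosphorylation, 0 of 80 ribosomal protein genes and 0 of 49 ribosome biogenesis genes passed, with medians of -0.06, -0.15 and 0.16. The 68 lists together held 1718 distinct genes tested, of which 16 rose (0.931%, against 0.466% of all genes) and 93 fell (5.41%, against 3.02%).

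TPMR1 tumors carry an sgRNA against the regulatory subunit of the same enzyme. In the contrast of TPMCa with TPMR1 from the same fit, 0 genes passed the adjusted threshold from edgeR and 1867 (11.8%) had an unadjusted p under 0.05, while DESeq2 called 772 and edgeR called 1379 when TPMR1 replicate 2 was left out. A gene that passed against TPM is thus not shown to be particular to TPMCa. Values side by side were as follows, with no test of likeness since both models were set against the same TPM libraries. Cdh1 was at 6.97 and 5.34 CPM in TPMCa and 0.271 and 0.5 CPM in TPMR1. Cdkn1c was at 1175 and 2247 CPM and 106 and 94.2 CPM (unadjusted p = 0.000184, adjusted p = 0.292). Both TPMCa values of Cdkn1c were above both TPMR1 values, and the test did not call the difference. Plagl1 was at 505 and 452 CPM and 54.1 and 18 CPM, and Rspo2 at 17.8 and 13.7 CPM and 0.387 and 1.22 CPM. For Gata4 the TPMR1 values were the higher, at 5.32 and 11.3 CPM and 137 and 183 CPM.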

How the data were processed

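Bulk RNA-seq counts of 8 libraries, 2 per model, were analysed, and groups were taken from the sample labels. The deposited table holds raw counts per gene that the authors made from 150-bp paired-end reads aligned with STAR to mm10; the counter, annotation and strand setting are not given in the sources used here. A second deposited table holds the same libraries as normalized signal (counts scaled with DESeq2 by the authors) and was not used for tests. No per-sample column was left out.

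Counts were fitted with edgeR 4.0.16 (limma 3.58.1, R 4.3.3) using TMM scaling, filterByExpr, a term for the 4 models over all 8 libraries, and quasi-likelihood tests with Benjamini-Hochberg adjustment at 0.05. CPM include TMM factors, and SEs are the log2 fold change divided by the square root of F. A gene with 3 counts or fewer in both libraries of a model was set to 3 counts per library for bounds. Data were simulated for TPMCa against TPM (15875 genes, 200 changed), with the spread of each gene set by the trend over all genes. The test called 61.5% of the changed genes, from 23.2% at a 4-fold change to 90.6% at a 64-fold change, and 2 unchanged genes. Moderate differences were thus often missed in that setting. Genes with a spread of their own and a larger number of changed genes were not simulated, so these rates may not hold for the real libraries. Alternatives were DESeq2 1.42.0, other scalings, filters and samples, a replicate block, the looser threshold stated in the methods of the study, and leaving out each library.

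The comparison and its 68 gene lists were chosen with earlier results of these data known, so the lists are described by counts and medians with no test of their own. Genes were named by a rule: up to 3 called members of a list in each direction by size, the first 3 members (or, where a name pattern gave the list, the 3 most abundant), the 10 largest called changes over all genes with a mean log2 CPM of at least 3 in each direction, and the engineered genes. Arg1, Axin2, Ccl2, Cldn3, Cldn5, Cxcl12, Dlk1, Egr1, Fos, Gbp2, Grb10, H19, Hoxa11, Meg3, Muc1, Oasl1, Peg10, Phf11d, Phlda2, Pik3r1, Rtp4, Slc22a18, Snai2, Sox7, Vwf and Wnt7a fall outside it and were chosen after their values were seen, as were the genes in the closing observations. Gene positions are from GENCODE M21 on GRCm38, and promoters from a RefSeq table of GRCm38.p6 that holds 250 bases before each start. Results on some genes are not reported here.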

Additional observations from a re-analysis of the deposited data

How the results depend on the processing

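Counts of calls depended on the test and on single libraries more than on scaling. Scaling with DESeq2 size factors or library size, and both other filters, kept the counts of genes higher (74) and lower (479) within 1.5 times. The Wald test of DESeq2 called 975 higher and 1574 lower (187 and 217 of the listed genes, against 16 and 93), and 772 genes between TPMCa and TPMR1, against 0. A fit of the 2 models alone called 420 and 844 (103 and 151 listed), and the looser threshold 1155 and 1852. Leaving out 1 library gave 2 to 3 genes higher and 36 to 228 lower (2 to 3 and 11 to 53 listed), and 0 to 1379 genes between TPMCa and TPMR1, where only leaving out TPMR1 replicate 2 gave any. The causes were not tested.

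The labels do not say whether the replicate numbers mark a shared day, litter or batch. The differences between replicates 1 and 2 correlated at -0.023 between TPM and TPMCa, and between -0.069 and -0.008 over all pairs of models. With a single difference per model, these values cannot exclude a shared batch. With a replicate block, 27 genes were higher and 335 lower (8 listed genes higher), 24 of the 74 and 302 of the 479 genes stayed called, and the medians of Hox genes and of gland genes and mucins were 1.18 and -6.01.

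Over fits without 1 library, medians ranged from 1.98 to 5.72 for B lymphocyte markers, 0.87 to 2.86 for Hox genes, 1.56 to 2.07 for collagen processing, -6.89 to -6.08 for epithelial genes, 0.25 to 1.83 for fibroblast markers, -3.25 to -1.60 for interferon-stimulated genes, 1.16 to 2.54 for macrophage markers and -6.43 to -5.72 for gland genes and mucins. The sign was not stable over these fits for some genes, none of them called: Arg1 ranged from -2.32 to 0.16, Esr1 ranged from -1.15 to 0.49, Hoxa11 ranged from -1.26 to 3.08, Igf2 ranged from -0.61 to 7.26, Meg3 ranged from -0.42 to 0.14, Myc ranged from -1.95 to 1.28, Pgr ranged from -2.26 to 3.87 and S100a8 ranged from -1.59 to 1.83. The medians of 22 of the 68 lists also turned sign in at least 1 of these fits. The 8 whose median was larger than its replicate SD were those of ATF4 and tRNA synthetase genes (-0.043 to 1.0), MHC class II antigen presentation (-0.33 to 2.27), PDGF, HGF, Kit and Axl genes (-0.0092 to 0.51), Schwann and glial markers (-1.72 to 0.22), chemokine receptors (-0.35 to 2.14), endocardial factors (-0.37 to 1.28), glycolysis and hypoxia response (-0.16 to 1.07) and natural killer cell and cytotoxicity genes (-0.92 to 3.49), and with no filter the median of endocardial, cardiac and mesoderm transcription factors was 0. With the replicate block Myc was at -0.0339.

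Calls of named genes were lost with library size alone for Mest, Pax2, Phf11d, Rtp4, Tlr7 and Gbp2, with DESeq2 size factors for Gbp2, Krt19 and Tlr7, with the filter of 10 counts for Tlr7, and with the 2 models alone for Gbp2, Insig1, Mef2c, Ogn and Phf11d.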

Other observations

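Of the 74 genes that rose, 58 stood in none of the 68 lists, and those named here were chosen after their values were seen. Angptl4, a secreted inhibitor of lipoprotein lipase, was at 19.3 and 19.2 CPM in the TPM libraries and 139 and 153 CPM in the TPMCa libraries (adjusted p = 0.0151). Fign, a microtubule-severing enzyme, was at 0.0602 and 0.172 CPM in the TPM libraries and 21.5 and 27.9 CPM in the TPMCa libraries (adjusted p = 0.0208). Fndc3c1, a fibronectin domain gene that is expressed in testis, was at 0.783 and 0.229 CPM in the TPM libraries and 96.6 and 249.8 CPM in the TPMCa libraries (adjusted p = 0.0312). Each had both TPMCa values above both TPM values.

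Cd5l, a protein secreted by tissue macrophages, was at 0.181 and 0.286 CPM in the TPM libraries and 14.2 and 18 CPM in the TPMCa libraries (adjusted p = 0.03), at like levels in both TPMCa libraries although the macrophage sum differed between them. E2f1, a transcription factor of S phase entry, was at 14.4 and 14.1 CPM in the TPM libraries and 39.5 and 63.4 CPM in the TPMCa libraries (adjusted p = 0.0357), and Parp1, a DNA repair enzyme, was at 75.7 and 98.3 CPM in the TPM libraries and 218 and 233 CPM in the TPMCa libraries (adjusted p = 0.0404). Slc7a2, a transporter of cationic amino acids, was at 26.7 and 19.4 CPM in the TPM libraries and 252 and 138 CPM in the TPMCa libraries (adjusted p = 0.0379), and Pmp22, a membrane protein of myelin, was at 21.9 and 10.9 CPM in the TPM libraries and 93.3 and 204 CPM in the TPMCa libraries (adjusted p = 0.0476). None of these calls held without TPMCa replicate 1 or 2.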
